A study of Bos taurus with 6 samples.

Results

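Aminoacyl-tRNA synthetases were described in the oocytes of 3 Holstein cows as 44 array probes of 29 genes, out of 43794 probes on the array. Probes were taken by the gene symbol of the platform annotation: a letter for the amino acid followed by ARS, with a final 2 for the mitochondrial enzyme, or EPRS, FARSA, FARSB or AARSD1. By these names 17 genes were cytosolic and 12 mitochondrial. The cytosolic set covered 15 amino acids and the mitochondrial set 12. Enzymes for aspartate, glutamate, glutamine and valine, and EPRS, gave no probe by these symbols and were not analysed here. RefSeq's ARS-UCD2.0 gene table held all 29 symbols, 14 of them as older names of symbols that now end in 1 (KARS is now KARS1).

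Every cow, of parity 2, was stimulated with follicle-stimulating hormone (FSH), given every 12 h over 3 days, and then left without it for 68 h, a coasting period in which follicles develop on the animal's own gonadotropins. In the control round coasting was all that followed, and in the treated round a gonadotropin-releasing hormone (GnRH) antagonist, named cetrotide in the labels, was given throughout it. GnRH antagonists block the pituitary receptor that drives luteinizing hormone secretion. Oocytes were stripped of cumulus cells and their RNA was extracted in pools and amplified. The number of oocytes per pool is not given in the sources used here. Both RNAs of a cow were hybridised together on 2 arrays with the dyes Cy5 and Cy3 exchanged, so 6 arrays gave 3 replicates, 1 per cow. The rounds lay at least a month apart, so a difference between collections or RNA amplifications cannot be told apart from the antagonist. In pooled RNA, fewer oocytes and less RNA per oocyte cannot be told apart either.

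An aminoacyl-tRNA synthetase joins an amino acid to its transfer RNA and so sets which amino acid each codon delivers to the ribosome. Cytosolic and mitochondrial translation mostly use enzymes from separate nuclear genes. GARS and KARS are exceptions, since each makes both forms. The enzymes fall into class I and class II, families with unrelated catalytic folds. Several cytosolic enzymes sit in a multisynthetase complex held by the scaffold proteins AIMP1, AIMP2 and EEF1E1. A growing oocyte translates actively and stores messenger RNA for the time after meiosis resumes, when transcription has stopped.

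The labelled cell type was checked by its markers. All 12 oocyte markers, among them GDF9, ZP3 and NLRP5, were above the negative controls in all 12 readings (6 arrays, 2 channels), with summed raw intensities of 93683 to 103758 with control and 91952 to 99857 with antagonist. Single oocyte markers were less even than these sums. By limma 4 of the 12 had an unadjusted p under 0.05, against 12.7% of all probes. Their mean log2 ratios of antagonist over control were 1.11 (NLRP5), 0.90 (MOS), 0.60 (ZP3) and -0.34 (ZAR1). The median ratios of the 12 were 0.14, 0.16 and 0.055 in cows 1, 2 and 3. Of 10 granulosa and cumulus markers 7 were tested and 4 were above in all 12 readings, and their summed intensities were 3080 to 4108 with control and 3005 to 5702 with antagonist. Their median log2 ratios were -0.0052, -0.076 and 0.030 in cows 1, 2 and 3, but single markers lay far from 0, with INHA at 1.40 and INHBA at 1.48 in cow 3 and HAS2 at -0.98 in cow 2. Of 6 theca and stroma markers 4 were tested and 3 were above in all 12 readings, with summed intensities of 1436 to 2334 with control and 1710 to 4839 with antagonist, and VIM at 1.52 in cow 3. The part of these marker lists in the synthetase ratios was not tested. A probe was tested if it lay over the negative control spots (their mean with 2 SD added) in 3 or more of the 6 readings for control or for antagonist. This kept 32527 probes, among them 38 of the 44 synthetase probes and at least 1 of each of the 29 genes. Each gene is represented by its brightest tested probe, and 26 of the 44 probes were above in all 12 readings. Raw intensities of the tested synthetase probes ran from 133 to 22681. Ratios below are log2 antagonist over control, as mean ± SD over the 3 cows.

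No synthetase messenger RNA passed correction between antagonist and control oocytes, and the share at an unadjusted threshold was near that of all probes. By limma, 0 of 29 genes had an adjusted p under 0.05, as did 0 of all 32527 probes (0%), and the lowest adjusted p of a synthetase gene was 0.31. The count over all probes depends on the pixel summary of a spot: with the median of its pixels in place of the mean, 80 or 316 probes passed correction, depending on the background column, and still 0 synthetase genes. The mean was chosen after the counts under both had been seen. At an unadjusted p under 0.05 there were 3 of 29 genes, or 10.3%, against 12.7% of all probes and 15.1% of all 12314 genes by their brightest probe. These were KARS and TARS2 with positive ratios (higher at this level were 6.72% of all probes) and RARS2 with a negative one (lower, 6.02%). Mean ratios ran from -0.31 to 0.51, so 0 of 29 reached 1.5-fold, against 3.56% of all probes. For 24 genes the 95% interval of the ratio lay wholly within 1.5-fold in either direction. For KARS, TARS, WARS, IARS and IARS2 it reached further. The intervals were not counted over all probes, so 24 of 29 cannot be called particular to synthetases. The 24 include AARS, AARSD1, CARS, FARSA, CARS2, FARS2, NARS2 and PARS2, which were not above the negative controls in every reading. For these genes, close to background, a narrow interval says little about whether the messenger RNA changed.

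The median ratio of the 29 genes was 0.042, against 0.0027 over all probes tested, and 17 genes were above 0 (all probes, 51.4%). In 6 genes the ratio was positive in all 3 cows (all probes, 19.3%), in 4 it was negative in all 3 (all probes, 16.7%), and in 19 the cows had mixed signs. The plot of synthetase ratios by cow shows how far the cows lay from each other within most genes.

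**Figure D1:**
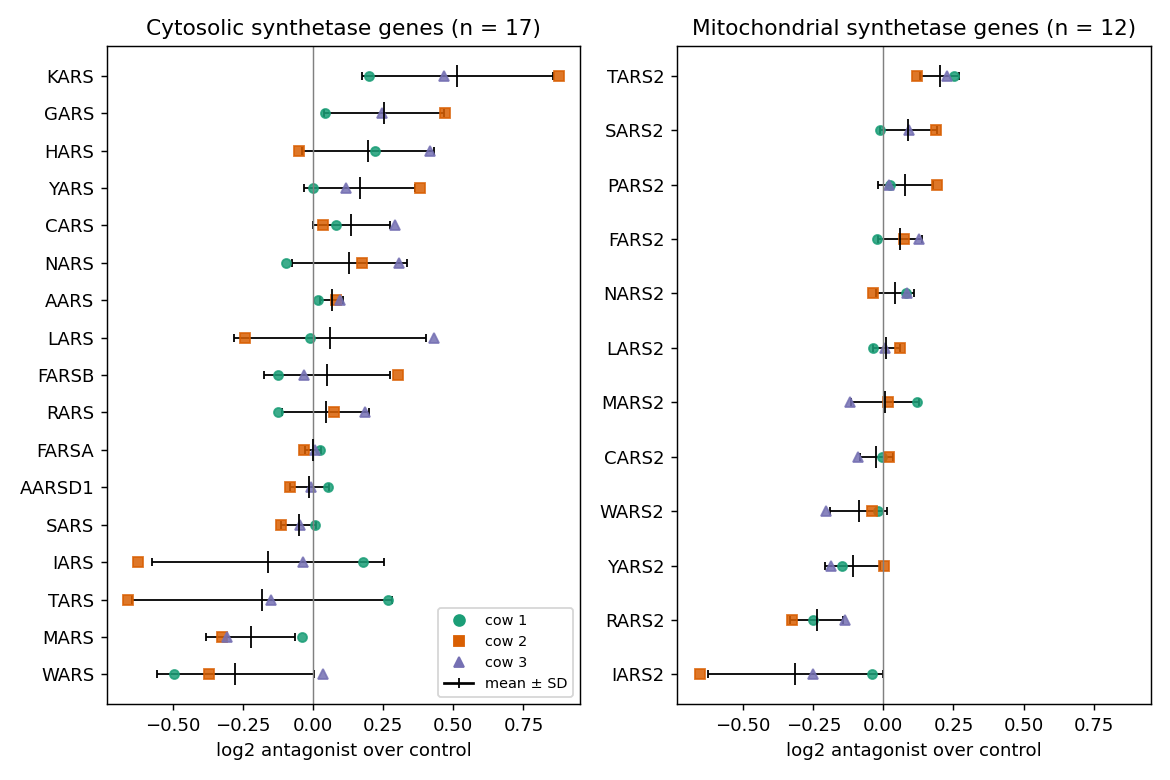
Log2 ratio of antagonist over control for each cytosolic (left) and mitochondrial (right) synthetase gene by its brightest tested probe, with 1 point per cow and the mean ± SD over 3 cows. KARS has the highest mean, 0.51, and IARS2 the lowest, -0.31, and the cows spread more widely in most cytosolic than in most mitochondrial genes. The compartments were not matched for brightness.

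KARS, which encodes lysyl-tRNA synthetase for both compartments, had the largest ratio of the 29 genes. With control in Cy5 its ratios were 0.44, 1.23 and 0.73 in cows 1, 2 and 3, and with antagonist in Cy5 they were -0.043, 0.52 and 0.20. All but one of these were positive, and in each cow the array with control in Cy5 gave the higher value. The mean over cows was 0.51 ± 0.34, or 1.43-fold, with a 95% interval from 0.067 to 0.96 (limma, unadjusted p = 0.034, adjusted p = 0.35). Its raw intensity lay between 3167 and 4473 with control and between 3950 and 7088 with antagonist. These ranges overlap, but they pool cows and dyes and leave out the pairing on each array. A second, dim probe of KARS, above the negative controls in 1 reading with control and 4 with antagonist, had a ratio of 0.041 ± 0.090.

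GARS, glycyl-tRNA synthetase and the other enzyme shared by both compartments, had the next largest ratio, 0.25 ± 0.21, with values of 0.044, 0.47 and 0.24 in cows 1, 2 and 3. The order of the cows was the same as for KARS, with cow 2 highest and cow 1 lowest. Other synthetase genes, among them YARS and FARSB, had this order too, and TARS and IARS had the reverse. HARS, the histidyl enzyme, had 0.20 ± 0.23 and YARS, the tyrosyl enzyme, 0.17 ± 0.20. CARS, for cysteine, had 0.14 ± 0.14 and NARS, for asparagine, 0.13 ± 0.21. Of these, GARS and CARS were positive in all 3 cows, but none had an unadjusted p under 0.05. AARS, the alanyl enzyme, had 0.066 ± 0.041, LARS, the leucyl enzyme, 0.060 ± 0.34, and RARS, the arginyl enzyme, 0.045 ± 0.16.

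The other cytosolic genes had ratios near or below 0. FARSA and FARSB encode the subunits of the phenylalanyl enzyme, and they had -0.00029 ± 0.029 and 0.048 ± 0.22. FARSA had the smallest spread of the 29 genes, but it was close to background, with 6 readings above it with control and 5 with antagonist. AARSD1, which by its known role removes wrongly attached amino acids and is no synthetase, had -0.013 ± 0.068, and SARS, the seryl enzyme, -0.052 ± 0.062. WARS, the tryptophanyl enzyme, had the lowest cytosolic ratio, -0.28 ± 0.28, with -0.50, -0.37 and 0.037 in cows 1, 2 and 3. MARS, the methionyl enzyme, had -0.22 ± 0.16 and was negative in all 3 cows, at -0.039, -0.32 and -0.31 (limma, unadjusted p = 0.055).

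TARS and IARS, the threonyl and isoleucyl enzymes, had the widest spread over cows. TARS had ratios of 0.27, -0.66 and -0.15, and IARS of 0.18, -0.62 and -0.037, in cows 1, 2 and 3. Both were positive in cow 1 and lowest in cow 2. Their means of -0.18 ± 0.46 and -0.16 ± 0.41 therefore lay well within the spread between animals, and without cow 2 they turned to 0.057 and 0.071. Of the 5 measured enzymes known as members of the multisynthetase complex, KARS, LARS and RARS had positive and IARS and MARS negative means.

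Among the mitochondrial enzymes RARS2, the arginyl enzyme, had a negative ratio in each cow, at -0.25, -0.33 and -0.14. The mean was -0.24 ± 0.095, or 0.85-fold (limma, unadjusted p = 0.017, adjusted p = 0.31). Its ratios in cows 1, 2 and 3 differed by dye orientation: with antagonist in Cy5 they were -0.51, -0.64 and -0.45, and with control in Cy5 0.0096, -0.0062 and 0.17. The mean over both orientations balances the dyes. Raw intensities were 16527 to 22681 with control and 13771 to 18079 with antagonist. The ranges overlap, but they too leave out the pairing on each array.

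TARS2, the mitochondrial threonyl enzyme, had the highest mitochondrial ratio, 0.20 ± 0.069, or 1.15-fold, with 0.25, 0.12 and 0.23 in cows 1, 2 and 3 (limma, unadjusted p = 0.018, adjusted p = 0.32). With antagonist in Cy5 its values were 0.51, 0.42 and 0.44. With control in Cy5 they were -0.0047, -0.18 and 0.012, and the orientations did not overlap. The probe was dim, with raw intensities of 231 to 260 with control and 300 to 377 with antagonist. Detection thresholds ran from 170 to 247 over arrays and channels. The 2 other tested probes of TARS2 had 0.049 ± 0.031 and 0.012 ± 0.066.

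IARS2, the mitochondrial isoleucyl enzyme, had the lowest ratio of all 29 genes, -0.31 ± 0.31, with -0.039, -0.65 and -0.25 in cows 1, 2 and 3. As with cytosolic IARS, cow 2 had the lowest value. The remaining mitochondrial genes had small ratios. SARS2 had 0.089 ± 0.10, PARS2, for proline, 0.078 ± 0.098, FARS2 0.059 ± 0.077 and NARS2 0.042 ± 0.068. LARS2 had 0.010 ± 0.049, MARS2 0.0060 ± 0.12, CARS2 -0.025 ± 0.058, WARS2 -0.087 ± 0.10 and YARS2 -0.11 ± 0.099. None of these had an unadjusted p under 0.05. For WARS2 the arrays of cow 2 disagreed, at 0.43 with control in Cy5 and -0.51 with antagonist in Cy5. CARS2, FARS2, NARS2 and PARS2 were close to background, PARS2 with 2 readings above it with control and 4 with antagonist, so their small ratios say little.

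Cytosolic and mitochondrial enzymes did not separate as groups. The median ratio was 0.048 over the 17 cytosolic genes, of which 10 were above 0, and 0.0081 over the 12 mitochondrial genes, of which 7 were above 0. In cow 1 the cytosolic and mitochondrial medians were 0.019 and -0.016, in cow 2 -0.032 and 0.018, and in cow 3 0.097 and -0.042. The cytosolic median was thus the higher one in cows 1 and 3 and the lower one in cow 2. The difference, cytosolic minus mitochondrial, had a mean over cows of 0.041 ± 0.095, less than its spread. No p-value is given for it, since the members were chosen with earlier results known. In the authors' deposited ratios the medians were 0.060 and 0.0080.

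Enzymes of both compartments could be paired for 11 amino acids, in 12 pairs since FARSA and FARSB both face FARS2. The cytosolic gene had the higher ratio in all 3 cows for arginine, cysteine, isoleucine and tyrosine, and the lower one in all 3 for methionine. The other 7 pairs had mixed signs. RARS exceeded RARS2 by 0.28 ± 0.14 and YARS exceeded YARS2 by 0.28 ± 0.12. For MARS against MARS2 the difference was -0.23 ± 0.10. The largest difference in size, -0.38 ± 0.40 for TARS against TARS2, came mainly from cow 2, at -0.78. The pairs are described without a test, since an exact sign-flip test over 3 cows cannot give a two-sided p under 0.25 and the pairs stand outside the fit across all probes.

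**Figure D2:**
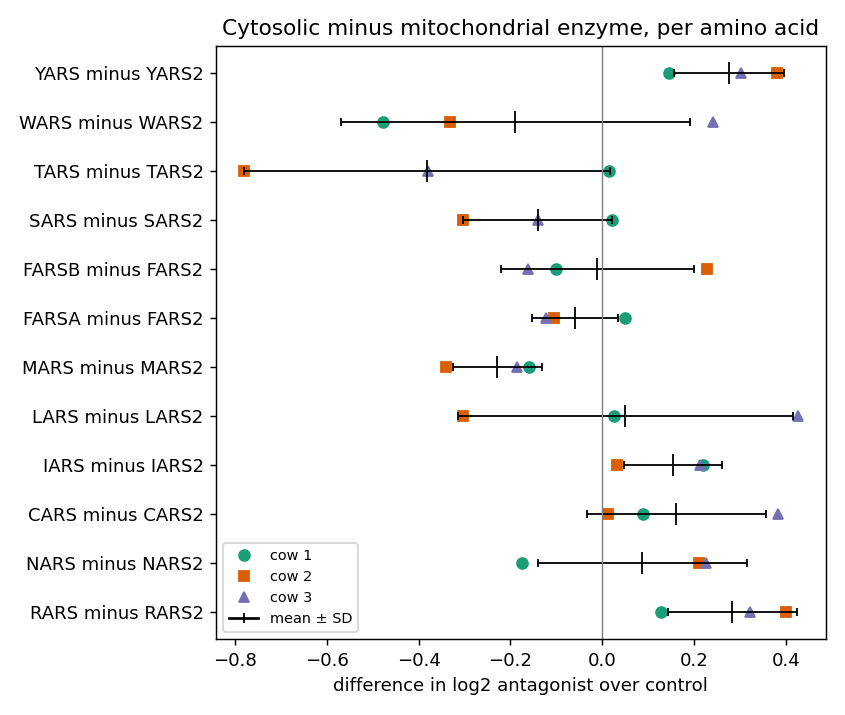
Difference in log2 ratio between the cytosolic and the mitochondrial gene of the same amino acid, with 1 point per cow and the mean ± SD over 3 cows. In 4 pairs all cows lie above 0, in 1 pair (MARS minus MARS2) all lie below 0, and 7 pairs straddle it.

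Grouped by catalytic class, with AARSD1 in neither, 14 class I genes had a median ratio of -0.056 and 14 class II genes one of 0.072. Of the class I genes 6 were above 0, and of the class II genes 11 (all probes, 51.4%). The class I median was below 0 in each cow, at -0.028, -0.018 and -0.064, and the class II median above 0, at 0.024, 0.10 and 0.095. KARS, GARS, HARS and TARS2 are class II enzymes, and IARS2, WARS, RARS2 and MARS class I. Other members went the opposite way. Class II genes below 0 were TARS (-0.18), SARS (-0.052) and FARSA (-0.00029). The 6 class I genes above 0 were YARS (0.17), CARS (0.14), LARS, RARS, LARS2 and MARS2. The grouping was made after the values were seen and is a description only.

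Synthetase ratios depended on which dye carried which RNA. In a limma fit of the 6 arrays with a term for dye, 19 of 29 genes had a dye term at an adjusted p under 0.05, against 64.6% of all probes. In 15 of 29 genes the dye term was larger in size than the mean ratio, so that the orientations had means of opposite sign (all probes, 58.1%). No synthetase gene kept 1 sign on all 6 arrays, whereas 6.73% of all probes were positive on all 6 and 5.41% negative on all 6. SARS2 was the widest case, by a dim probe with raw intensities of 206 to 331 with control and 224 to 508 with antagonist. Its ratios were 0.50, 0.72 and 0.55 in cows 1, 2 and 3 with control in Cy5, and -0.52, -0.35 and -0.37 with antagonist in Cy5. The groups of arrays do not overlap, and they average to a ratio near 0. Cytosolic SARS had means of 0.30 and -0.40 in these orientations. The count of dye terms rests on the mean of a spot's pixels: with the median it was 4 genes (19.1% of all probes), or 2 with the background median too (14.2%).

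**Figure D3:**
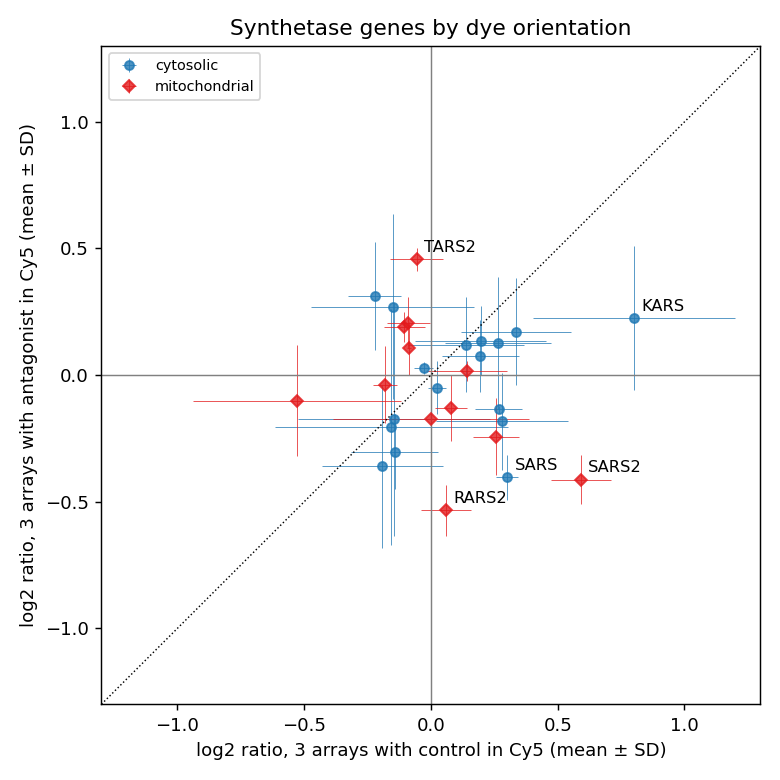
Mean ± SD log2 ratio of each synthetase gene on the 3 arrays with control in Cy5 (horizontal) and the 3 with antagonist in Cy5 (vertical), with the dotted line marking equal values. SARS2, SARS, RARS2 and TARS2 lie far from the line, and KARS lies to the right of 0 and above it.

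The cows differed from each other in many synthetase genes. Limma's F-test for equal ratios in the 3 cows had an adjusted p under 0.05 in 15 of 29 genes, or 51.7%, against 47.4% of all probes. The error in that test comes from the 2 arrays of a cow, so animals and RNA preparations cannot be told apart. With the median of a spot's pixels the count was 6 (18.6% of all probes), or 1 with the background median too (10.6%), so it depends on the pixel summary for the synthetases and for all probes. By compartment these were 13 of 17 cytosolic genes and 2 of 12 mitochondrial ones, IARS2 and MARS2. Detection moved with this count: 64.6% of probes above the negative controls in all 12 readings were called, and 17.2% of the others. Among genes above in all 12 readings it was 12 of 13 cytosolic and 2 of 8 mitochondrial genes, with median SDs over cows of 0.22 and 0.10, against 0.18 for all such probes. Over all tested synthetase genes, without the split by detection, the median of a spot's pixels gave 5 cytosolic and 1 mitochondrial calls. With the background median too these were 0 and 1. The split by compartment and detection was made after the values were seen, and whether the compartments differ in this was not tested. Genes above in all 12 readings still varied in brightness. Their mean raw control intensities ran from 219 (YARS) to 17573 (FARSB) in cytosolic genes. In mitochondrial genes they ran from 248 (TARS2) to 19701 (RARS2), and the compartments were not matched for brightness.

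Cow 2 had the largest ratio in size in 15 of 29 genes, cow 3 in 11 and cow 1 in 3. This was not counted over all probes, where cow 2 also had the widest spread, so it cannot be called particular to synthetases. The SD of the ratios over the 29 genes was 0.15, 0.33 and 0.20 in cows 1, 2 and 3, against 0.20, 0.42 and 0.27 over all probes. Across the 29 genes, which share arrays and are not independent, Pearson's r was 0.54 between cows 2 and 3. It was 0.26 between cows 1 and 3, and 0.12 between cows 1 and 2. Over all probes these values were 0.78, 0.28 and 0.19.

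Probes of the same gene did not always agree. Of the 29 genes, 11 had several probes, and 7 had more than 1 that was tested. Besides KARS, the probes of WARS and NARS differed most. The bright WARS probe had -0.28 ± 0.28, and a dimmer one 0.082 ± 0.063, positive in all 3 cows. The 3 probes of NARS had 0.13 ± 0.21, 0.013 ± 0.20 and -0.12 ± 0.21, from the brightest to the dimmest. The brighter pair ran in parallel, lowest in cow 1 and highest in cow 3, while the dimmest ran the opposite way. The probes of FARSA, CARS2 and NARS2 stayed within 0.05 of each other. Transcript forms that single probes miss were not examined, since probe sequences were not used here.

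**Figure D4:**
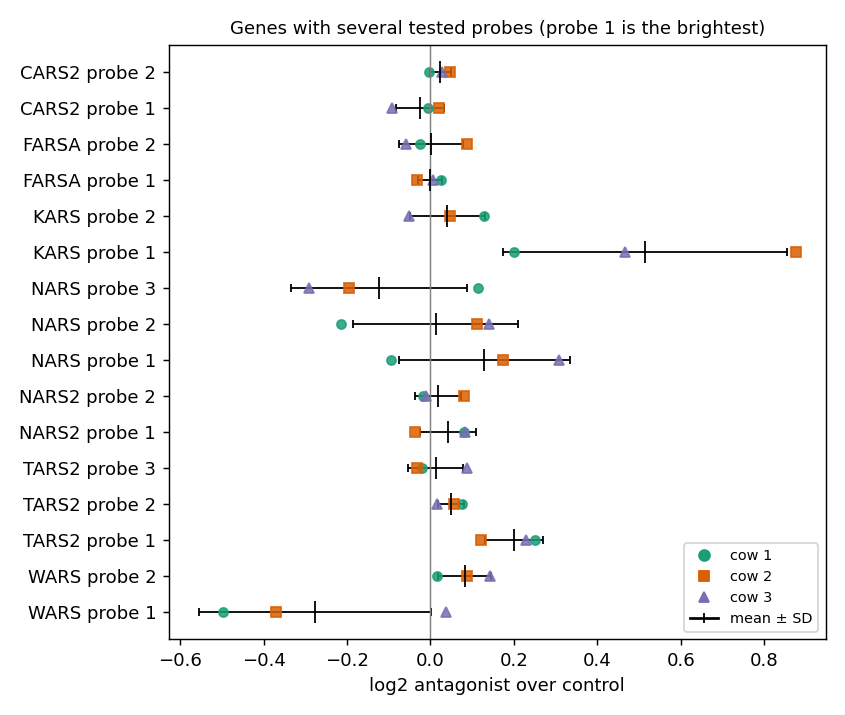
Log2 ratio by cow, with mean ± SD, for each tested probe of the 7 genes with more than 1 tested probe, numbered from the brightest. The probes of KARS and WARS lie apart, at 0.51 and 0.041 and at -0.28 and 0.082.

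The ratios that the authors deposited gave nearly the same values as those computed from the scanner files. Over the 38 tested synthetase probes both sets of means correlated at 0.999. In the authors' deposited ratios KARS had 0.52 ± 0.35, RARS2 -0.22 ± 0.080 and TARS2 0.20 ± 0.058. The dependence on dye orientation was also present there: RARS2 had -0.52, -0.59 and -0.45 with antagonist in Cy5 and 0.024, 0.021 and 0.18 with control in Cy5.

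Genes that work with the synthetases were taken from a fixed list of 55 in 6 groups, of which 43 were tested. Of these, 5 had positive and 5 negative ratios at an unadjusted p under 0.05 (6.72% and 6.02% of all probes), 33 did not pass, and 0 passed at an adjusted p under 0.05. With the 6 arrays fitted singly and each cow as replicate block, AIMP2, CLP1 and DDIT3 passed at adjusted p-values of 0.049, 0.013 and 0.034 (limma), and CLP1 also passed with spot and background medians (limma, adjusted p = 0.034). The block fit takes arrays as units and shares a single correlation within cows, 0.77, over all probes. With the cow as unit, the adjusted p-values of AIMP2, CLP1 and DDIT3 were 0.32, 0.28 and 0.29 (limma). The median over the 43 genes was 0.024, with 23 above 0.

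Of the 3 scaffolds of the multisynthetase complex, AIMP2 had a far larger ratio than any synthetase. It was 0.56, 2.28 and 2.05 in cows 1, 2 and 3, positive on all 6 arrays, with a mean of 1.63 ± 0.93 (limma, unadjusted p = 0.021, adjusted p = 0.32). Its 2 dimmer probes gave 0.39 ± 0.18 and 0.14 ± 0.17, so the size of the ratio depended on the probe. AIMP1 had 0.12 ± 0.41 and EEF1E1 -0.014 ± 0.26, each with mixed signs.

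Genes of transfer RNA maturation and export held 6 of the 10, 4 with positive and 2 with negative ratios among 16 tested. At that threshold were 12.7% of all probes and 15.1% of all genes by their brightest probe. Whether the group stands out was not tested. CLP1, an RNA kinase bound to the tRNA splicing endonuclease, had 0.62, 0.86 and 0.83 in cows 1, 2 and 3, positive on all 6 arrays, with a mean of 0.77 ± 0.13 (limma, unadjusted p = 0.00069, adjusted p = 0.28). ELAC2, which trims the 3′ end of tRNA precursors, had 0.79 ± 0.59, TRMT1, a tRNA guanine methyltransferase, 0.33 ± 0.13, and POP7, a subunit of RNase P, 0.30 ± 0.060. XPOT, the nuclear export receptor of tRNA, had -0.37 ± 0.22, and NSUN2, a tRNA cytosine methyltransferase, -0.48 ± 0.35. TRMT1 was positive and XPOT negative on all 6 arrays.

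Of the amino acid response genes, which include the transcription factor ATF4 and targets it shares with cytosolic synthetases, 1 of 15 passed the unadjusted threshold (all probes, 12.7%). This was DDIT3, a transcription factor induced by stress signals, with -0.28, -0.47 and -0.59 in cows 1, 2 and 3 and a mean of -0.45 ± 0.16, negative on all 6 arrays (limma, unadjusted p = 0.0068, adjusted p = 0.29). Its 2 other probes gave -0.39 ± 0.13 and -0.38 ± 0.16, so all 3 probes had negative means. ATF4 had 0.074 ± 0.27. ASNS, asparagine synthetase, had 0.59 ± 0.46, with 0.12, 1.05 and 0.59 in cows 1, 2 and 3 (limma, unadjusted p = 0.053). KARS and GARS had the same order of cows, a likeness picked out after the values were seen. It is not particular to them: AIMP2, the oocyte marker MOS, YARS and FARSB had it too, and TARS and IARS had the reverse. Over all probes cow 2 had the widest SD of ratios, 0.42, and cow 1 the narrowest, 0.20.

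PSTK, the kinase on the path to selenocysteinyl-tRNA, had -0.25 ± 0.014, negative on all 6 arrays and nearly equal in the 3 cows, but its other, dimmer probe had 0.011 ± 0.085. DTD1, which removes D-amino acids from tRNA, had -0.26 ± 0.10, negative on all 6 arrays, and its other probe 0.045 ± 0.24. The genes of glutaminyl-tRNA and formylmethionyl-tRNA synthesis in mitochondria, GATC, QRSL1 and MTFMT, had -0.067, -0.051 and -0.14, and none passed the unadjusted threshold.

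**Figure D5:**
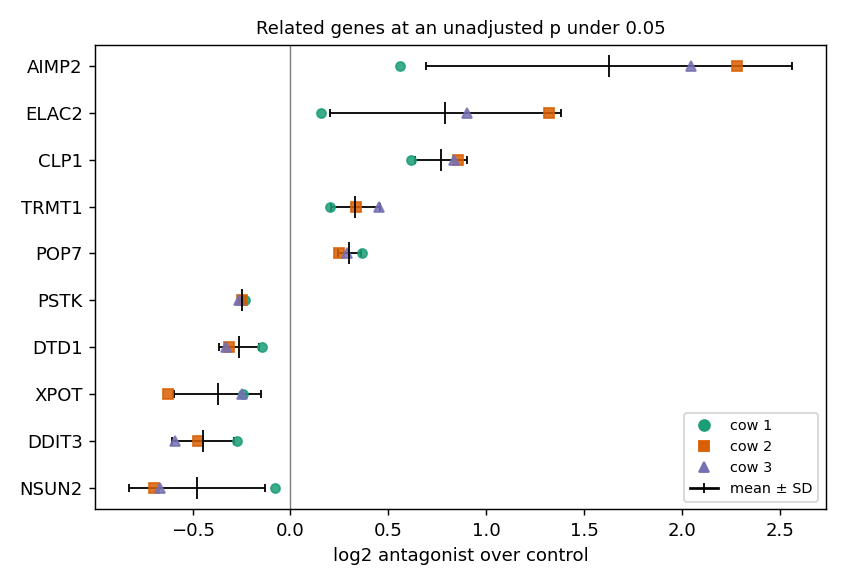
Log2 ratio by cow, with mean ± SD over 3 cows, for the 10 related genes at an unadjusted p under 0.05. AIMP2 has the largest mean, 1.63, with cow 1 well below the others, while PSTK has nearly the same value, -0.25, in all cows.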

How the data were processed

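The scanner files hold raw spot intensity and local background intensity, per the file headers, as pixel means at 635 nm (Cy5) and 532 nm (Cy3). RNA was amplified and dye-labelled, per the labels' protocols; image software is not given in the sources used here. The authors deposited a table of log2 ratios, in which both dye orientations already had antagonist as the numerator (slopes of 0.99 to 1.00 against the values computed here; column medians of 0.0010, 0.0015, -0.0027, 0.00081, 0.0018 and 0.00039); its normalization is not known. It served as an alternative.

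Of 45220 spots, 105 ignored by the image analysis were left out. Intensities were corrected by normexp (offset 50) and normalized by loess within arrays, with no weight on controls, using limma 3.58.1 in R 4.3.3. The spot and background means were kept after 6 pairings of mean, trimmed mean and median columns had been run over all probes and their counts seen; the means gave the counts of an earlier text on these data, and the other 5 pairings are alternatives. Probes above negative controls were 55.8% to 77.5% per channel, which limits the precision of dim ones. The dye-swapped pair of each cow was averaged, and the 3 means were tested against 0 by lmFit and eBayes (two-sided), with Benjamini-Hochberg adjustment across 32527 probes. Another fit, of 6 arrays, had cow effects and a dye term. Replicates are animals, paired by design: arrays of a cow deviated together (r of 0.74 to 0.91). On simulated data for 32527 probes, 50% of 100 probes at 2-fold and 0% of 100 at 1.41-fold passed correction. The simulation shuffled the SDs over cows among probes and drew the cows independently. In the data the median SD was 0.18 for probes above in all 12 readings and 0.062 for the others. Cows 2 and 3 correlated at 0.78 over all probes. These shares therefore hold for the simulated setting and do not measure power for bright probes here. Named were members at unadjusted p under 0.05, extreme ratios and spreads, their amino acid partners, and genes whose probes differed; the other members were added. Members and lists were chosen with earlier results of these data known, and catalytic class, complex membership, the 1.5-fold interval count, the opposite-orientation count, the largest cow per gene and the cow counts by compartment and detection were added after values were seen. Alternatives covered the intensity columns, background, normalization, the dim-probe filter, the deposited ratios and dye orientation. They also covered the inferred slide number, the replicate block, the probe rule and each cow. Slide numbers are an inference made here, as the sample descriptions do not give them.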

Additional observations from a re-analysis of the deposited data

How the results depend on the processing

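No synthetase gene passed correction under the reported fit or any alternative fit of genes by their brightest probe, and KARS kept a positive ratio under all of them, from 0.23 to 0.80. When the 6 arrays were fitted singly, with a dye term and each cow as replicate block, 848 probes passed correction, among them AIMP2, CLP1 and DDIT3 but no synthetase gene, and 6 synthetase genes had an unadjusted p under 0.05 (18.4% of all probes). A single consensus correlation, 0.77, was used there for all probes, and arrays rather than cows were the units. The 3 arrays with control in Cy5 gave 109 probes past correction, 9 synthetase genes at an unadjusted p under 0.05 (31.4% of all probes), medians of 0.14 (cytosolic) and -0.029 (mitochondrial) and a difference of 0.17. The 3 arrays with antagonist in Cy5 gave 186 probes, 9 genes (28.9% of all probes) and a mitochondrial median of -0.069. The dye effect is not cancelled in either. The mitochondrial median was -0.041 with probes above the negative controls in all 12 readings. It was -0.049 on the arrays of the most frequent inferred slide number. Leaving out each cow in turn gave 2 to 5 synthetase genes at an unadjusted p under 0.05: 5 without cow 1 (22.8% of all probes), 2 without cow 2 (7.93%) and 2 without cow 3 (4.89%). The difference between compartments turned to -0.013 with median centring and to -0.021 without cow 3. The class I median stayed below 0 and the class II median above 0 in every alternative fit run on them.

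The pixel summary of a spot, an alternative added after the data were seen, changed more. Spot medians with background means gave 80 probes past correction (lowest adjusted p 0.033), a mitochondrial median of -0.032, and 6 genes that differed between cows and 4 with a dye term, where spot means gave 15 and 19 (all probes: 18.6% and 19.1%, against 47.4% and 64.6%). Spot medians with background medians gave 316 probes (lowest adjusted p 0.0021), -0.035, 1 gene and 2 genes (all probes: 10.6% and 14.2%), and CLP1 passed correction. Of the 29 genes 28 were tested in both, 3 and 2 at an unadjusted p under 0.05 (13.2% and 13.7% of all probes). Spot means with background medians, and trimmed means with either, gave 0 probes past correction and 3 such genes. The cause was not tested.

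Several ratios changed sign, among them RARS2 and TARS2, both at an unadjusted p under 0.05 in the reported fit, and POP7, IARS and TARS. Settings with 1 dye orientation keep the dye term, which the reported ratio balances. The most frequent inferred slide number keeps part of it, since its arrays held cows 1 and 3 with antagonist in Cy5 only. For the other settings the cause was not tested. With control in Cy5 alone FARS2 had -0.089, LARS -0.15, LARS2 -0.086, NARS2 -0.11, RARS -0.22, RARS2 0.059, SARS 0.30 and TARS2 -0.056. With antagonist in Cy5 alone AARS had -0.14, FARSA 0.028, FARSB -0.18, MARS2 -0.24, SARS2 -0.41 and POP7 -0.0036. On the most frequent inferred slide number AARS had -0.065, FARSA 0.017, FARSB -0.093, MARS2 -0.16 and SARS2 -0.24. With median centring FARSA had 0.024, FARSB -0.081, LARS -0.011, MARS2 -0.070 and RARS -0.087. Without background correction LARS2 had -6.6e-05, and in the authors' deposited ratios FARSA had 0.00070. Spot medians gave LARS -0.024, MARS2 -0.032, NARS2 -0.11, RARS -0.044 and WARS2 0.086 with background means, and -0.036, -0.035, -0.19, -0.041 and 0.089 with background medians. Trimmed means gave MARS2 -0.00016 and WARS2 0.12 with background means and WARS2 0.13 with background medians. Leaving out each cow in turn, FARSA ranged from -0.013 to 0.015, FARSB from -0.079 to 0.13, IARS from -0.33 to 0.071, LARS from -0.13 to 0.21, LARS2 from -0.015 to 0.033, MARS2 from -0.051 to 0.068, RARS from -0.024 to 0.13 and TARS from -0.40 to 0.057. Signal over background limits AARS, AARSD1, CARS, FARSA, CARS2, FARS2, NARS2 and PARS2, which were not above the negative controls in all 12 readings. Some genes above them in all 12 were dim too. Among these were YARS, TARS2 and SARS2, with mean raw control intensities of 219, 248 and 269.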
